A study of Mus musculus with 14 samples.

Results

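*Id1*, *Id2* and *Id3* were chosen by gene symbol, and all 3 were found among the 19425 genes of the series. They were followed along the path by which the endothelium of the mouse aorta gives rise to blood cells, in single cells of 13 sorted populations at embryonic day (E) 10 and E11 and in whole intra-aortic haematopoietic clusters (IAHCs) taken 1 by 1 with an automated cell picker. Another member of the family, *Id4*, was not among the chosen genes and was nearly undetected, with 2 transcripts in the 546 E10 cells and 11 in the 575 E11 cells.

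Id proteins carry the helix-loop-helix domain of basic helix-loop-helix transcription factors but lack the basic region that contacts DNA. They dimerize with the E proteins (encoded by *Tcf3*, *Tcf4* and *Tcf12*) and thereby keep these, and the tissue-specific factors that need an E protein as partner, such as those encoded by *Tal1* and *Lyl1*, from DNA. The *Id* genes are well-known direct targets of bone morphogenetic protein (BMP) signalling through SMAD proteins, and they are known in endothelium for their part in vessel growth and in blood for keeping progenitors from differentiating.

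The endothelial populations came from the aorta-gonad-mesonephros region (AGM) of ICR embryos labelled with the genotype Gfi+/tomato/ Gfi1b+/GFP, in which fluorescent reporters stand for the transcription factors Gfi1 and Gfi1b. The embryos came from wild-type mothers and from fathers of that genotype. Non-haemogenic endothelium (non-HE) was Cdh5+ Gfi1- Gfi1b- c-kit-, haemogenic endothelium (HE) was Cdh5+ Gfi1+ Gfi1b- c-kit-, and cells in endothelial-to-haematopoietic transition (EHT) were Cdh5+ Gfi1+ Gfi1b- c-kit+. All other populations came from C57BL/6 wild-type embryos, namely IAHC cells (c-kit+ CD31+ at both stages, with a second E11 sample gated on c-kit+ alone), E11 precursors of haematopoietic stem cells (pre-HSCs, c-kit+ Cdh5+, type I CD45- and type II CD45+) and yolk sac (YS) c-kit+ cells. E10 embryos had 28 to 32 somite pairs and E11 embryos more than 40. The E10 non-HE cells carry names of early E11 in the deposited table, and the sample labels, which say E10, were followed. The names also give ages that differ between HE and part of the EHT cells at E10, within E10 EHT and within E11 non-HE. Within these populations age cannot be told apart from the sorted set, and its part in the levels was not tested.

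Each population was 1 sample of 30 to 201 cells, and every cell had been brought to the same total, 3000 transcripts at E10 and 5000 at E11. No test between populations was therefore possible. The intervals given for single-cell levels (Poisson), shares of cells (Clopper-Pearson) and ratios of levels (conditional binomial) are exact 95% intervals that cover counting error only. The spread between sorted sets, the groups of cells that share a column name within a sample, is given beside them. Beyond the ages in some names, how the sets differ is not stated. Marker genes followed the gates, since the 8 endothelial markers summed to a mean of 35.6 transcripts per cell in E10 non-HE, 26.9 in HE, 7.87 in EHT, 4.60 in IAHC and 0.355 in YS cells. At E11 they summed to 40.97 in non-HE, 52.1 in HE, 17.6 in EHT and 1.02 in YS cells, so they were higher in HE than in non-HE there. Between EHT and YS lay type I (9.34) and type II (4.65) pre-HSCs and c-kit+ CD31+ (8.48) and c-kit+ (4.75) IAHC cells. Between EHT and the wild-type populations, strain and genotype cannot be told apart from the population.

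On GRCm38 with the GENCODE annotation, *Id1* lies at chr2:152736251-152737410 (plus strand), *Id2* at chr12:25093799-25097140 (minus strand) and *Id3* at chr4:136143497-136145755 (plus strand), and no other annotated gene overlaps them. RefSeq promoter windows (GRCm38.p6, 250 bases before to 50 after the start) were matched for *Id2* and *Id3*. The RefSeq starts lie inside the GENCODE spans of both genes, so the windows overlap these spans. Stretches of 30 bases are shown because the letters bound by SMAD proteins and by E proteins differ between both windows, with each match in capitals, 5′ to 3′ on the strand of the gene. The *Id2* stretches lie at chr12:25096306-25096335 and chr12:25096271-25096300, and the *Id3* stretches at chr4:136143642-136143671 and chr4:136143741-136143770.
Id2, GGCGCC: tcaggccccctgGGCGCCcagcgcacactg
Id2, E-box: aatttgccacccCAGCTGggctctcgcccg
Id3, CAGAC: ctgtcctcggcgtCAGACcagcctaaggaa
Id3, GTCTG: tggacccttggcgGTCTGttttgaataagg
The *Id2* window held 1 match to GGCGCC, a GC-rich element of the BMP-regulated SMADs, which starts 231 bases before the RefSeq start, and GGCGCC is found in 11.9% of the 32851 promoter windows. It also held 1 E-box (CANNTG, the letters bound by E protein dimers, in 72.3% of windows) and no SMAD box (CAGAC, searched on both strands as CAGAC or GTCTG, in 49.6% of windows). The *Id3* window held 2 SMAD boxes but neither GGCGCC nor an E-box. GGCGCC and CANNTG read the same on both strands, and the matches shown do not overlap. A match to such short letters is a description of the sequence.

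*Id3* was the most abundant member in both endothelial populations and the one that spanned the widest range. At E10 it stood at 3.42 transcripts per cell in non-HE (interval 2.89 to 4.02), 2.90 in HE (2.57 to 3.26), 0.874 in EHT (0.747 to 1.02), 0.425 in IAHC (0.289 to 0.603) and 0.0142 in YS cells, where 2 transcripts came from a single cell. At E11 it stood at 5.50 transcripts per cell in non-HE (4.69 to 6.41), 4.26 in HE (3.69 to 4.90), 1.59 in EHT (1.244 to 2.00), 0.831 in c-kit+ CD31+ IAHC cells (0.710 to 0.967), 0.823 (0.612 to 1.08) in type I pre-HSCs, 0.551 in c-kit+ IAHC cells (0.407 to 0.728), 0.327 in type II pre-HSCs (0.194 to 0.517) and 0.109 in YS cells, again from a single cell. The order from endothelium through EHT to IAHC and YS was thus the same at both stages. At E11 neighbours differed beyond counting error from non-HE down to c-kit+ CD31+ IAHC cells, whereas from there to type II pre-HSCs they did not, and YS cells were again lower.

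*Id1* spanned a narrower range along the same path. At E10 it was found at 1.51 transcripts per cell in non-HE (1.17 to 1.93), 1.153 in HE (0.95 to 1.386), 0.482 in EHT (0.388 to 0.591), 0.589 in IAHC (0.426 to 0.793) and 0.234 in YS cells (0.161 to 0.329). At E11 it was found at 2.80 in non-HE (2.23 to 3.47), 2.33 in HE (1.906 to 2.81), 0.652 in EHT (0.440 to 0.931), 0.652 in c-kit+ CD31+ IAHC cells (0.545 to 0.773), 0.517 in c-kit+ IAHC cells (0.378 to 0.689), 0.419 (0.274 to 0.614) in type I pre-HSCs, 0.345 in those of type II (0.208 to 0.539) and 0.239 in YS cells (0.119 to 0.428). *Id1* was therefore high in non-HE and HE, and among the E11 populations from EHT down no neighbours in the order of levels differed beyond counting error.

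*Id2* was the scarcest member in 12 of the 13 populations. At E10 it stood at 0.721 transcripts per cell in non-HE (0.490 to 1.02), 0.398 in HE (0.283 to 0.544), 0.126 in EHT (0.0805 to 0.187), 0.0548 in IAHC (4 transcripts) and 0.0355 in YS cells (5 transcripts). At E11 it stood at 1.73 in non-HE (1.295 to 2.27), 1.196 in HE (0.901 to 1.56), 0.217 in EHT (0.104 to 0.400), 0.259 in c-kit+ CD31+ IAHC cells (0.193 to 0.339), 0.226 in type I pre-HSCs, 0.213 in c-kit+ IAHC cells, 0.109 in type II pre-HSCs and 0.0652 in YS cells (3 transcripts). Outside the endothelium, *Id2* rested on 3 to 52 transcripts in a population, and no neighbours in the order of its levels there differed beyond counting error.

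**Figure D1:**
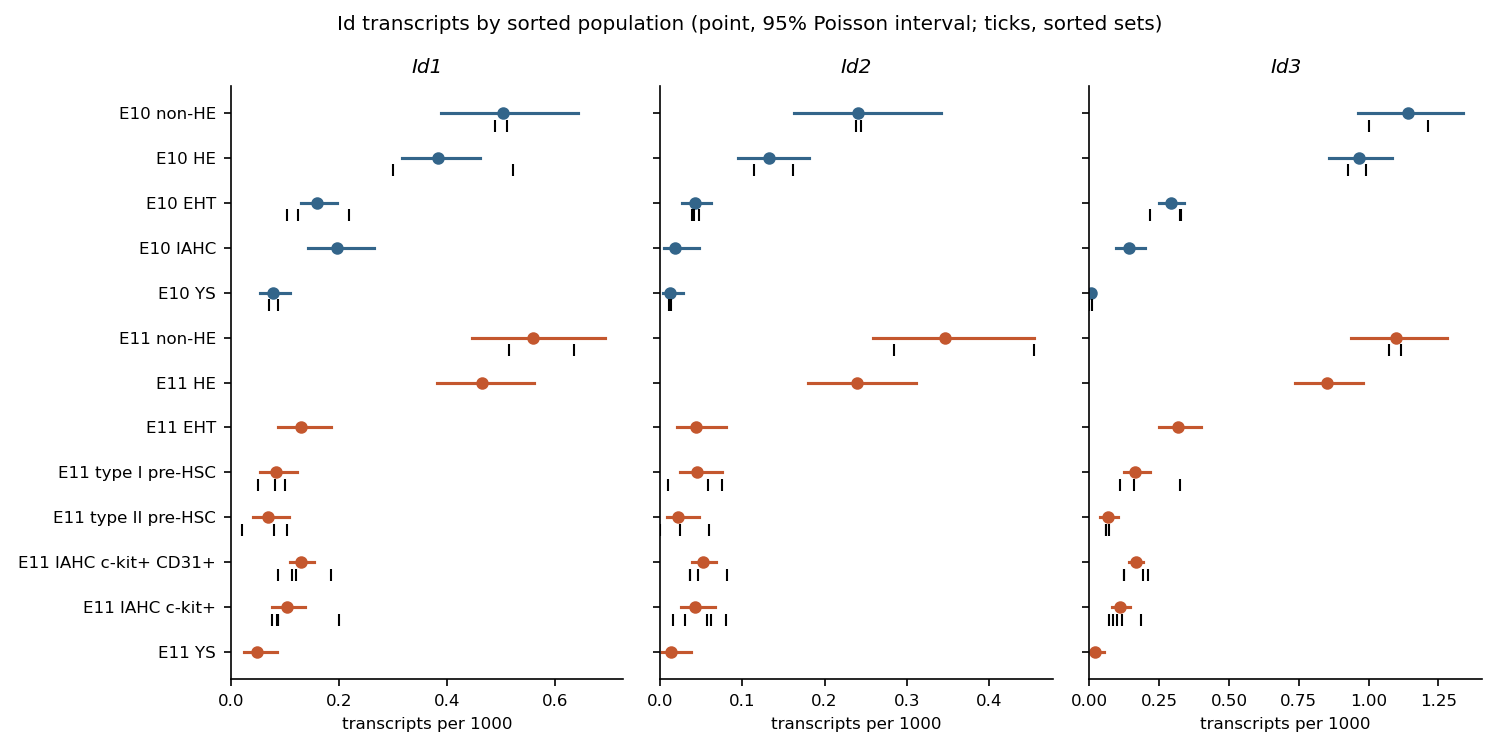
Transcripts per 1000 of *Id1*, *Id2* and *Id3* (horizontal axes) in the 13 single-cell populations (vertical axis), as points with the exact 95% Poisson interval and with ticks for the sorted sets. Each gene is highest in non-HE and HE, with *Id3* at 1.14 and 0.966 per 1000 at E10 and at 1.1 and 0.852 at E11.

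Levels varied between the sorted sets of a population, and the sets were not compared for other genes. *Id3* ranged over the sets from 3.0 to 3.64 transcripts per cell in E10 non-HE, from 2.78 to 2.97 in HE and from 0.656 to 0.989 in EHT. *Id1* ranged from 0.902 to 1.568 between both sets of E10 HE and from 0.312 to 0.655 over the 3 sets of EHT, and *Id2* from 0.344 to 0.486 and from 0.115 to 0.141. In E11 c-kit+ CD31+ IAHC cells the sets ran from 0.440 to 0.932 for *Id1*, from 0.180 to 0.407 for *Id2* and from 0.620 to 1.05 for *Id3*. For *Id1* this spread is wider than the difference between the c-kit+ CD31+ and c-kit+ samples.

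The members differed in how they were distributed over cells. *Id3* had at least 1 transcript in all 30 E11 non-HE cells and in all but 2 of 46 E11 HE cells, whereas 22 of 46 E11 EHT cells had none. At E10, 3 of 43 non-HE cells and 11 of 98 HE cells lacked *Id3*, against 125 of 191 EHT cells, 56 of 73 IAHC cells and 140 of 141 YS cells. The *Id3* transcripts of E10 EHT cells were unevenly spread, since 96 of 167 came from the 19 cells with the most. Cells with 4 or more *Id3* transcripts made up 20 of 191 E10 EHT cells and 9 of 46 E11 EHT cells, but 31 of 98 and 24 of 46 HE cells.

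*Id1* was detected in 58.1% of non-HE, 48% of HE, 30.4% of EHT, 32.9% of IAHC and 17% of YS cells at E10. At E11 the share with *Id1* was 70.0% of non-HE and 69.6% of HE cells, and from 23.9% (YS) to 39.1% (EHT) elsewhere. *Id2* was detected in 46.5% of non-HE, 28.6% of HE, 10.47% of EHT, 2.74% of IAHC and 3.55% of YS cells at E10. The lowest shares with *Id1*, in YS cells, were thus well above those with *Id3* in the same cells, 1 of 141 at E10 and 1 of 46 at E11.

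**Figure D2:**
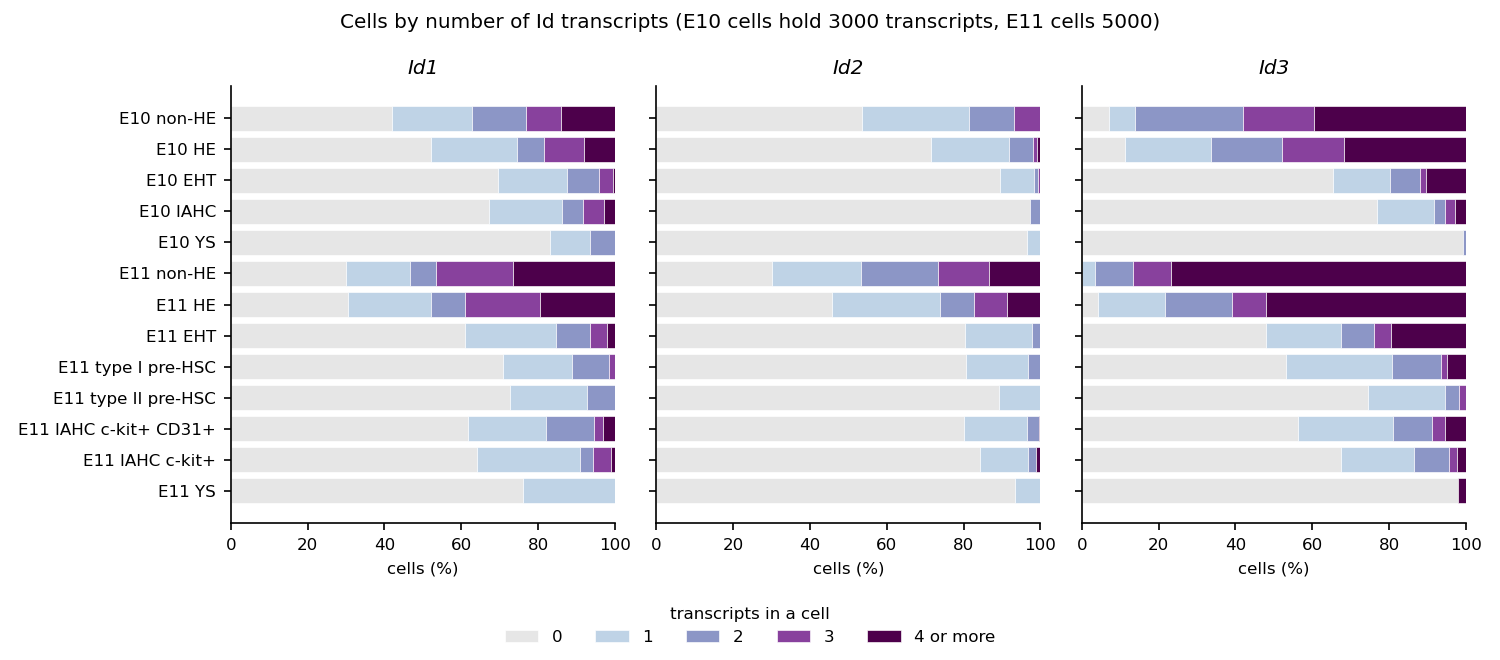
Share of cells (horizontal axes, percent) with 0, 1, 2, 3 and 4 or more transcripts of *Id1*, *Id2* and *Id3* in each population (vertical axis). Cells without *Id3* go from 3 of 43 in E10 non-HE to 140 of 141 in E10 YS, and from 0 of 30 to 45 of 46 at E11.

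At the step from HE to EHT, at which endothelial cells begin to take up a blood fate and gain c-kit, all 3 members were lower in EHT. At E10 *Id1* was 2.39-fold lower in EHT than in HE (1.80 to 3.19), *Id2* 3.17-fold lower (1.86 to 5.51) and *Id3* 3.31-fold lower (2.73 to 4.04). At E11 *Id1* was 3.57-fold lower (2.36 to 5.54), *Id2* 5.50-fold lower (2.78 to 12.1) and *Id3* 2.685-fold lower (2.04 to 3.56). No interval included equality at either stage.

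To set these against other genes, ratios were computed with 0.1 transcripts per cell added to both levels, over the genes that reached 0.5 transcripts per cell on either side of the comparison. At E10 both members that reached this level, *Id1* and *Id3*, were lower by more than 2-fold, as were 10% of the 1566 genes ranked, and *Id3* was the 46th lowest. With 0.5 added *Id1* was at -0.75 on the log2 scale, short of 2-fold. Without the first sorted set of HE, *Id1* stood at 0.902 transcripts per cell in HE, also short of 2-fold over EHT. At E11 all 3 members were lower by more than 2-fold, as were 11.7% of the 2554 genes ranked, and *Id2* was the 30th, *Id1* the 73rd and *Id3* the 144th lowest. The endothelial markers were also lower past 2-fold at this step (7 of 8 at E10 with a median log2 ratio of -1.49, 8 of 8 at E11 with -1.478) while the 5 ranked haematopoietic markers were higher past 2-fold (medians 1.93 and 2.96), against medians over all ranked genes of 0.05 and -0.05. Whether the *Id* genes moved apart from the loss of endothelial identity was not tested.

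From non-HE to HE, a step within the endothelium that is gated on Gfi1, no member changed by 2-fold. The log2 ratio of HE over non-HE was -0.39 for *Id1*, -0.86 for *Id2* (-1.58 to -0.13) and -0.24 for *Id3* at E10. It was -0.27, -0.54 and -0.37 in the same order at E11, where the interval of *Id3* (-0.67 to -0.06) excluded 0. All 6 values were below 0, but the other intervals included 0. With 0.1 added, the median over all ranked genes was 0.07 at E10 and -0.03 at E11, and the share below 0 was not counted. Of all ranked genes, 7.46% at E10 and 7.49% at E11 changed by more than 2-fold in either direction.

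**Figure D3:**
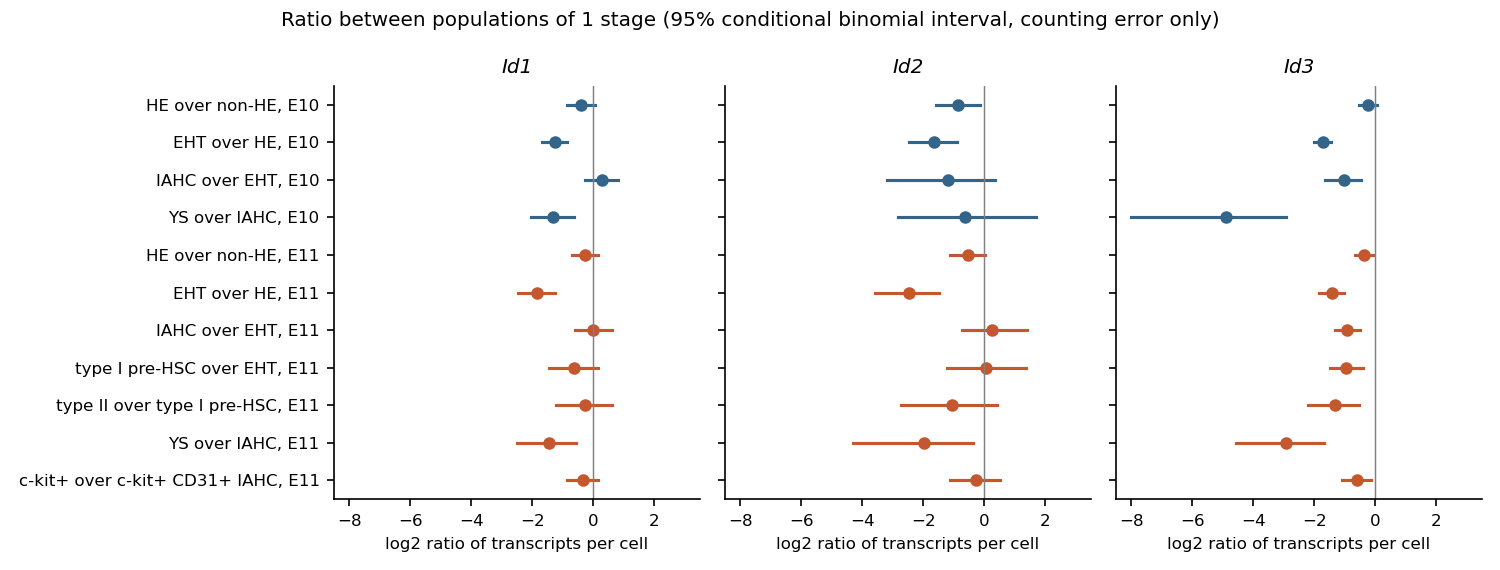
Log2 ratios of transcripts per cell of *Id1*, *Id2* and *Id3* (horizontal axes) between populations of the same stage (vertical axis), with exact 95% intervals for counting error. For EHT over HE the 6 ratios lie between -2.46 and -1.26, and none of the intervals reaches 0.

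Past EHT, *Id3* was lower again while *Id1* showed no difference beyond counting error. In c-kit+ CD31+ IAHC cells against EHT cells, the log2 ratio of *Id3* was -1.04 (-1.64 to -0.48) at E10 and -0.93 (-1.34 to -0.52) at E11. That of *Id1* was 0.29 (-0.27 to 0.83) at E10 and -0.00 (-0.58 to 0.62) at E11, so a change in *Id1* within these intervals was not detectable. Of *Id2*, with 4 and 52 transcripts in IAHC cells, the ratio was -1.2 (-3.18 to 0.34) and 0.25. Of all ranked genes 6.34% (E10) and 11.6% (E11) were lower by more than 2-fold in IAHC, and on the scale with 0.1 added no member was.

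In pre-HSCs, *Id3* was lower in type I than in EHT cells, with a log2 ratio of -0.95 (-1.49 to -0.41, where 10.2% of ranked genes were lower by more than 2-fold), and lower again in type II than in type I, with -1.33 (-2.19 to -0.53). Of the 2061 ranked genes 23 (1.1%) were lower by more than 2-fold in type II, *Id3* among them as the 17th lowest. With 0.5 in place of 0.1 added, the ratio was -0.68 and no longer past 2-fold. The 8 endothelial markers were lower over the same step, with a mean sum of 9.34 transcripts per cell in type I and 4.65 in type II. Whether *Id3* moved apart from them was not tested. The type I sets ranged from 0.550 to 1.625 *Id3* transcripts per cell and the type II sets from 0.300 to 0.360. By their column names both types share 3 sorted sets. In these *Id3* stood at 1.625 in type I and 0.300 in type II cells, at 0.794 and 0.360, and at 0.550 and 0.300. The values rest on 13 and 3, 27 and 9, and 11 and 6 transcripts, and in each set the counting intervals of both types overlap. Other genes were not compared set by set. *Id1* was higher in type II in 2 of these sets (0.25 and 0.400, 0.412 and 0.520) and lower in 1 (0.50 and 0.10). *Id1* did not differ beyond counting error between EHT and type I cells (-0.64, -1.45 to 0.17) or between both types (-0.28), and *Id2* had too few transcripts (14 and 6) to rank. Both types were taken from 1 sorted sample and separated by their CD45 record.

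YS c-kit+ cells held the least of each member among the populations as deposited. At E11, *Id1* stood at 0.0478 per 1000 in YS cells, and type II pre-HSCs went below this, to 0.0400, without the second of their 3 sorted sets. Against IAHC cells of the same stage, *Id3* was 29.9-fold lower at E10 (7.62 to 258) and 7.64-fold lower at E11 (3.21 to 23.8), from 2 and 5 transcripts in YS. *Id1* was 2.52-fold lower (1.56 to 4.09) at E10 and 2.73-fold lower (1.474 to 5.59) at E11. *Id2* was 3.97-fold lower at E11 (1.28 to 19.9) and did not differ beyond counting error at E10. At E10, 6.78% of ranked genes were lower by more than 2-fold, among them *Id1* (not with 0.5 added, at -0.57), and *Id2* and *Id3* did not reach the level for ranking. At E11 *Id3* was the 19th lowest of 2164 ranked genes, of which 6.84% were lower by more than 2-fold.

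*Gpr56*, which encodes an adhesion receptor, marks IAHC cells, and the study kept IAHC cells by their *Gpr56* transcripts, so the deposited cells may already have been selected. When a cut of more than 1 *Gpr56* transcript and at most 2 of each non-IAHC marker was set on the deposited, down-sampled counts, 54 of 73 E10, 140 of 201 E11 c-kit+ CD31+ and 47 of 89 E11 c-kit+ cells were left. In the c-kit+ sample *Id1* then went from 0.103 to 0.0298 transcripts per 1000 and *Id3* from 0.110 to 0.0596. E11 YS cells stood at 0.0478 for *Id1*, from 11 transcripts, and no interval was computed for the cells left by the cut. In c-kit+ CD31+ cells *Id3* went from 0.166 to 0.120 and *Id1* from 0.130 to 0.114, and at E10 *Id3* stayed at 0.142. At these depths the cut also leaves out cells in which *Gpr56* was not picked up, and whether the cells it drops are of another type was not tested. Before the cut, *Id3* was lower in the c-kit+ than in the c-kit+ CD31+ sample by a log2 ratio of -0.59 (-1.08 to -0.13), short of the 2-fold change that 1.71% of ranked genes passed.

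Comparison of stages used E11 cells thinned to 3000 transcripts. In non-HE the log2 ratio of E11 over E10 was 0.08 for *Id1*, 0.61 for *Id2* and -0.22 for *Id3*. In HE it was 0.15, 0.33 and -0.15 and in EHT -0.38, 0.05 and 0.22, in the same order. Without cells that carried 4 or more macrophage markers, the value of *Id2* in EHT was -0.24 on the scale with 0.1 added, where it had been 0.030. Only *Id1* in c-kit+ CD31+ IAHC cells, at 0.589 transcripts per cell at E10 and 0.383 at E11, had an interval that excluded 0 (-0.62, -1.18 to -0.05), while the median over all ranked genes in that comparison was -0.39. No member that reached the level for ranking moved by 2-fold between stages in any population, whereas 6.56% of ranked genes did in non-HE, 9.95% in HE, 7.0% in EHT, 4.07% in IAHC and 11.3% in YS cells. In YS cells no member reached that level. *Id1* stood there at 0.0780 per 1000 at E10 and 0.0362 at E11, a log2 ratio of -0.68 with 0.1 added.

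*Id* transcripts were also set against those of their binding partners. The 3 *Id* genes together summed to 5.65 transcripts per cell in non-HE, 4.45 in HE, 1.482 in EHT, 1.07 in IAHC and 0.284 in YS cells at E10. The E protein genes *Tcf3*, *Tcf4* and *Tcf12* summed to 1.84, 1.5, 1.26, 1.04 and 0.830 in the same order, a narrower range. *Id* transcripts per E protein transcript therefore went from 3.08 (2.38 to 4.02) in non-HE and 2.93 (2.42 to 3.55) in HE to 1.17 (0.985 to 1.4) in EHT, 1.03 (0.739 to 1.43) in IAHC and 0.342 (0.233 to 0.493) in YS cells.

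At E11 the ratio was 3.01 (2.39 to 3.81) in non-HE, 4.42 (3.46 to 5.70) in HE, 1.55 (1.14 to 2.11) in EHT, 0.938 (0.809 to 1.09) in c-kit+ CD31+ and 0.991 (0.758 to 1.30) in c-kit+ IAHC cells. It was 0.746 (0.562 to 0.987) in type I and 0.413 (0.283 to 0.595) in type II pre-HSCs and 0.50 (0.272 to 0.889) in YS cells. *Id* transcripts thus outnumbered those of E proteins beyond counting error in non-HE and HE at both stages and in E11 EHT, and were outnumbered in both types of pre-HSC and in YS. Transcript numbers carry no information on protein amounts or dimers.

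**Figure D4:**
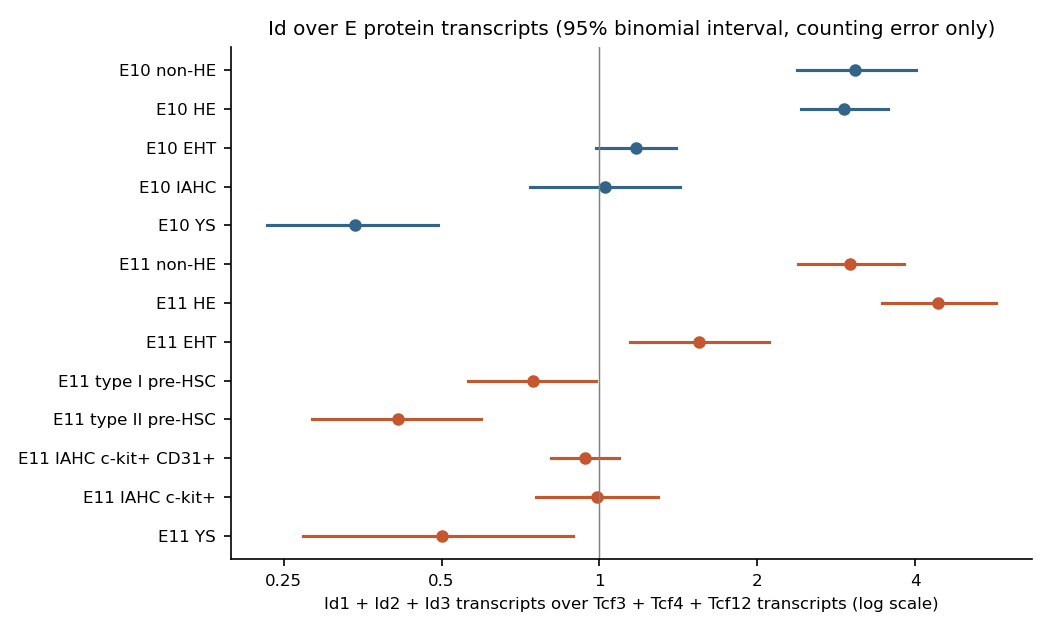
Ratio of summed *Id* to summed E protein transcripts (horizontal axis, log scale) in each population (vertical axis), with its exact 95% binomial interval and a line at 1. The ratio goes from 3.08 in E10 non-HE to 0.342 in E10 YS cells, and from 4.42 in E11 HE to 0.413 in type II pre-HSCs.

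The make-up of the family differed between populations. *Id3* made up 60.5% of *Id* transcripts in non-HE, 65.1% in HE and 59.0% in EHT at E10, but 39.7% in IAHC and 5.0% in YS cells. At E11 its share was 54.8% in non-HE, 54.7% in HE, 64.6% in EHT, 47.7% in c-kit+ CD31+ and 42.98% in c-kit+ IAHC cells, 56.0% in type I pre-HSCs, 41.9% in type II pre-HSCs and 26.3% in YS cells. At least 1 of the 3 genes was detected in 97.7% of E10 non-HE, 94.9% of HE, 51.3% of EHT, 47.9% of IAHC and 20.6% of YS cells. All 3 genes were seen together in 50% of E11 HE cells and 8.70% of E11 EHT cells.

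In EHT and E11 c-kit+ CD31+ IAHC cells, cells with both *Id1* and *Id3* or both *Id2* and *Id3* were more frequent than independent detection would give. Among E10 EHT cells, 15 held *Id2* and *Id3* where 6.91 were due, and 31 held *Id1* and *Id3* where 20 were due. Among E11 c-kit+ CD31+ IAHC cells, 48 held *Id1* and *Id3* where 33.7 were due. In non-HE and HE nearly every cell held *Id3*, so that pairs with it could hardly exceed what was due, as with 19 cells against 18.6 for *Id2* and *Id3* in E10 non-HE. For *Id1* and *Id2*, 23 E11 HE cells held both where 17.4 were due. Among populations with at least 5 cells due, more were seen in 8 of 10 for *Id1* and *Id3*. The tally was 6 of 7 for *Id1* and *Id2* and 6 of 7 for *Id2* and *Id3*. In type II pre-HSCs 3 cells held *Id1* and *Id3* where 3.82 were due. These cells share 1 sample and an equal depth, and the counts are a description.

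In EHT cells, which span from endothelium to blood, *Id3* lay on the endothelial side. E10 EHT cells with a transcript of *Gja5*, an arterial connexin, held 2.00 *Id3* transcripts per cell (44 cells) and the others 0.537 (147 cells), a log2 ratio of 1.90 (1.44 to 2.35). Those with *Cdh5*, which encodes the endothelial cadherin used in the sort, held 1.097 (144 cells) against 0.191 (47 cells). By contrast, cells with *Rac2*, a GTPase of blood cells, held 0.195 (41 cells) against 1.06 (150 cells), a log2 ratio of -2.44 (-3.68 to -1.43). The other markers looked at gave smaller ratios, with -0.74 (-1.19 to -0.28) for *Kit*, while those for the transcription factor genes *Runx1* (-0.23, -0.69 to 0.22) and *Gfi1* (0.21, -0.25 to 0.67) did not differ from 0 beyond counting error. From few transcripts, *Id2* gave 1.98 (0.71 to 3.28) for *Gja5*, 2.91 (0.29 to 8.27) for *Cdh5* and -2.65 (-8.02 to -0.03) for *Rac2*. With *Runx1*, however, *Id2* was higher, at 1.51 (0.11 to 3.13).

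The ratios of *Id3* had the same sign for *Gja5* and *Rac2* in E11 EHT cells, where *Id3* stood at 2.43 transcripts per cell with *Gja5* and 0.739 without (23 cells each), and at 0.182 with *Rac2* (11 cells) and 2.03 without (35 cells). *Id1* was at 0 in the 11 E11 EHT cells with *Rac2* and at 0.857 per cell in the others, whereas at E10 it stood at 0.415 with *Rac2* and 0.50 without, a log2 ratio of -0.27 (-1.12 to 0.50). In these cells *Id3* was also lower with *Runx1* (-1.66, -2.48 to -0.89), and *Gfi1* gave -0.053 (-0.77 to 0.70). In E11 c-kit+ CD31+ IAHC cells, those with *Rac2* (102 cells) held 0.569 *Id3* transcripts and those without (99 cells) 1.101, and for *Id1* 0.480 and 0.828. This was not seen in every blood population. In E10 IAHC cells *Id3* stood at 0.483 with *Rac2* (29 cells) and 0.386 without (44 cells), and *Id1* at 0.586 and 0.591. In type II pre-HSCs *Id3* was higher with *Runx1* than without, by a log2 ratio of 1.963 (0.38 to 3.804) that rests on 13 and 5 transcripts. Across cells, Spearman's rho of *Id3* with the summed endothelial markers was 0.54 in 191 E10 and 0.60 in 46 E11 EHT cells, and with the haematopoietic markers -0.32 and -0.49. Cells of 1 sample are not replicates, and no p-value is given. In E11 EHT, 2 cells carried 4 or more macrophage markers, and leaving them out changed no 2-fold call of a member.

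The BMP pathway, upstream of the *Id* genes, was read from lists of 3 ligand, 5 receptor, 4 Smad and 5 inhibitor genes at the step from HE to EHT. None of the ligand or Smad genes reached 0.5 transcripts per cell at either stage, with *Smad4* at 0.196 in HE and 0.326 in EHT and *Smad5* at 0.326 in both at E11. At E11 the 4 receptor genes that reached this level were all lower by more than 2-fold in EHT, with *Bmpr2* at 0.891 in HE and 0.391 in EHT, *Acvr1* at 0.565 and 0.0652, *Acvrl1* at 0.978 and 0.239, and the co-receptor gene *Eng* at 2.22 and 0.609. The 3 of 5 inhibitor genes that reached it, themselves targets of the pathway, were also lower past 2-fold, with *Smad6* at 2.07 and 0.913, *Smad7* at 0.913 and 0.304 and *Bambi* at 0.674 and 0.261. The median log2 ratios of both lists were -1.69 and -1.1, beside -0.05 over all ranked genes and 11.7% of genes lower past 2-fold. At each later step 1 receptor gene was ranked. Its log2 ratio over EHT (0.1 added) was 0.393 in E10 and 0.896 in E11 IAHC cells and 1.204 in type I pre-HSCs. The 1 ranked inhibitor gene stood at -1.94 in E11 IAHC cells and -1.64 in type I pre-HSCs. Receptor ratios were -0.37 for type II over type I pre-HSCs, and -2.15 (E10) and -1.49 (E11) for YS over IAHC cells. Whether receptor and *Id* genes moved together was not tested.

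At E10, where 10% of ranked genes were lower past 2-fold, 1 of 2 receptor genes (*Bmpr2*, 0.531 and 0.199, but not *Eng*, 1.122 and 0.550) and 1 of 1 inhibitor genes (*Smad6*, 0.827 and 0.325) were lower past 2-fold. Of the list of 5 other basic helix-loop-helix factors, 2 of 4 ranked at E10 and 2 of 5 at E11 were lower past 2-fold and none was higher. The same 2 genes were called at both stages. The Notch target genes *Hey1* (1.28 and 0.204) and *Hey2* (0.50 and 0.0628) were lower at E10 and again at E11 (1.85 and 0.457, 1.46 and 0.370). *Tal1* stood at 0.510 in HE and 0.435 in EHT at E10 and at 0.652 and 0.761 at E11, and *Lyl1* at 0.459 and 0.550 and at 0.630 and 0.761, without a difference beyond counting error. *Hes1*, another Notch target, stood at 0.457 in HE and 0.50 in EHT at E11 and was too low to rank at E10 (0.367 and 0.147). None of the ranked E protein genes was lower past 2-fold (0 of 1 at E10, 0 of 2 at E11), with *Tcf3* at 0.786 and 0.670 at E10 and at 0.957 and 0.783 at E11. *Tcf4* and *Tcf12* were lower past 2-fold one step earlier, from non-HE to HE at E11 (1.27 to 0.50 and 0.767 to 0.304 transcripts per cell), while *Tcf4* at E10 (0.953 to 0.439) fell short of 2-fold with 0.1 added.

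The 5 genes whose levels were most like those of each member over the 13 populations were named by Pearson's r of log2 transcripts per 1000 (0.02 added) among 4115 genes. For *Id3* these were *Mmrn2* (0.996), *Col4a1* (0.991), *Mmp2* (0.991), *Ramp2* (0.989) and *Fstl1* (0.989). For *Id1* they were *Adcy4* (0.972), *Fblim1* (0.966), *Lasp1* (0.963), *Wbp1l* (0.960) and *Aak1* (0.958), and for *Id2* *Prdm16* (0.974), *Cald1* (0.972), *Synpo* (0.972), *Amotl2* (0.969) and *Tcf7l1* (0.967). By this measure the members were less like each other than like these genes, with r of 0.916 for *Id1* and *Id2*, 0.912 for *Id1* and *Id3* and 0.908 for *Id2* and *Id3*. By Spearman's rho, *Id2* and *Id3* were at 0.907, above the 0.896 of *Id2* with *Prdm16* and with *Tcf7l1*. The populations of a stage share a depth, and the 13 points fall into endothelial populations with high and blood populations with low levels.

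Whole IAHCs (wIAHCs), picked as c-kit+ clusters from C57BL/6 wild-type embryos, gave 1 library each, with the side of the aorta recorded. Of 109 libraries, the 57 with at least 5000 transcripts were used (E10 dorsal 7, E10 ventral 21, E11 dorsal 12, E11 ventral 17), with medians of 14063, 14538, 8244 and 12838 transcripts. Each member was scarce, with 6 to 50 transcripts in a group, at most 12 in a library and none in many. *Id1* reached a mean of 65.8 ± 61.4 transcripts per 1000000 of the library's total (CPM; SD, n = 7; range 0 to 149, median 60.6) in E10 dorsal, 62.0 ± 68.8 (n = 21; 0 to 239, median 54.8) in E10 ventral, 110 ± 209 (n = 12; 0 to 656, median 0) in E11 dorsal and 105 ± 104 (n = 17; 0 to 286, median 78.0) in E11 ventral wIAHCs. The groups overlapped throughout, and without its highest library the E11 dorsal mean of *Id1* was 60.1.

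*Id2* reached 29.1 ± 42.1 (SD, n = 7; 0 to 108, median 0; mean without the highest library 15.9) in E10 dorsal, 71.1 ± 101 (n = 21; 0 to 330, median 18.1) in E10 ventral, 134 ± 123 (n = 12; 0 to 394, median 140) in E11 dorsal and 81.6 ± 76.9 (n = 17; 0 to 217, median 77.1) in E11 ventral wIAHCs. *Id3* reached 70.1 ± 68.8 (n = 7; 0 to 182, median 71.2), 89.7 ± 132 (n = 21; 0 to 562, median 41.6), 116 ± 125 (n = 12; 0 to 327, median 77.5) and 219 ± 326 (n = 17; 0 to 1224, median 78.0) in the same order. Every group held libraries without a single transcript of each gene. The study shows the number of cells of each wIAHC in a figure, but the library names do not carry it. In the values used here, a library with few cells and one with little RNA per cell cannot be told apart.

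**Figure D5:**
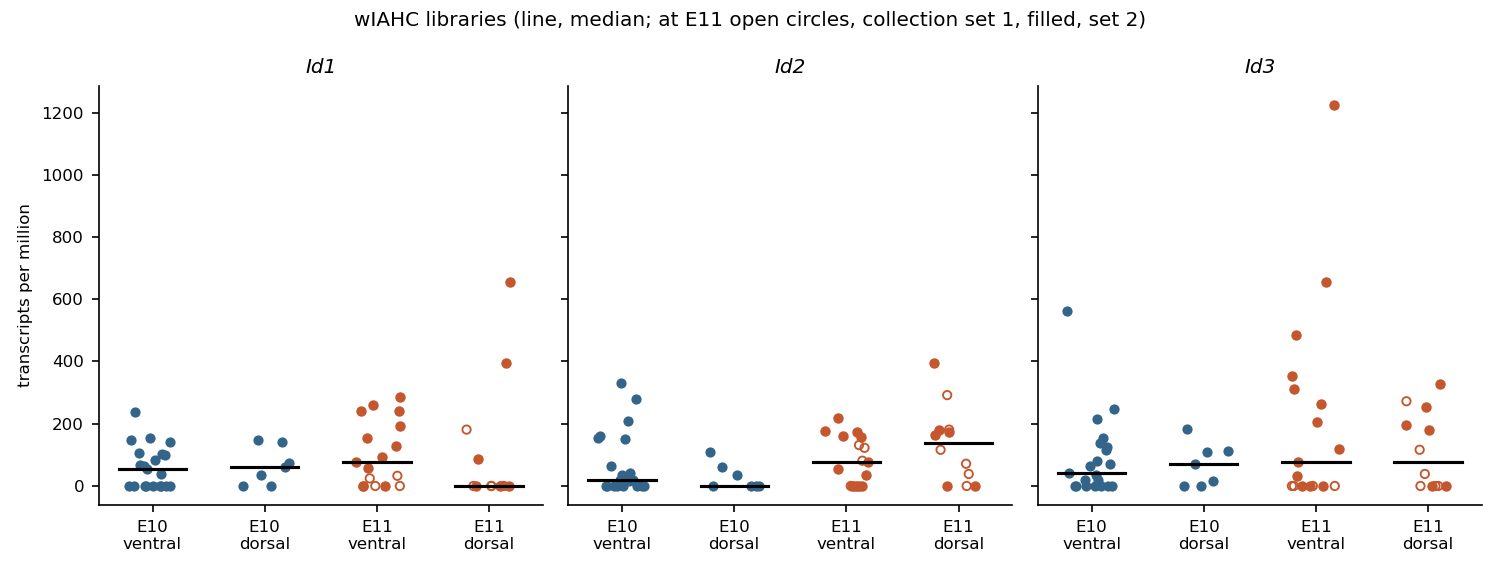
Levels (CPM, vertical axis) of *Id1*, *Id2* and *Id3* in each wIAHC library with at least 5000 transcripts, by stage and side (horizontal axis), with points for libraries, lines for medians and, at E11, open circles for the first and filled circles for the second collection set (by library name). The 4 groups overlap for each gene and every group includes libraries at 0.

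None of the 3 members passed the filter on low counts in edgeR, which left 260 genes, of which 84 (32.3%) differed between stages over both sides, 81 (31.2%) within ventral and 24 (9.23%) within dorsal libraries, and 0 between sides. The values given here come from the same quasi-likelihood test without that filter, over 13627 genes. For E11 minus E10 averaged over sides, 3.56% of genes were called and 0 of the 3 members. *Id2* had the lowest adjusted p of the members, 0.178, with a log2 fold change of 0.99 ± 0.42 (SE) and an unadjusted p of 0.0175. *Id3* stood at 0.59 ± 0.39 (adjusted p = 0.474) and *Id1* at 0.03 ± 0.52 (adjusted p = 1.00). As wIAHCs of 1 embryo cannot be recognised in the labels, these and all p-values below may be too small.

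Within ventral wIAHCs, where 2.27% of genes were called, *Id3* was at 0.92 ± 0.38 for E11 minus E10 (adjusted p = 0.208, unadjusted p = 0.0162 in edgeR), and at 0.22 over the libraries with at least 10000 transcripts. Over all 6 contrasts, none of the 18 member values had an adjusted p under 0.05 and 2 had an unadjusted p under it, while DESeq2 gave 0 by either measure, with a lowest adjusted p of 0.201. Between sides at E11, where 0.0881% of genes were called, *Id3* was at 0.91 ± 0.51 for ventral minus dorsal (adjusted p = 0.617, interval -0.09 to 1.912), *Id1* at 0.70 and *Id2* at 0.07. The mean CPM went the other way for *Id1* (ventral minus dorsal -4.52 CPM) and *Id2* (-52.5 CPM). At E10, where 0.0587% of genes were called, ventral minus dorsal was 0.15 for *Id1* (mean CPM -3.86), 0.62 for *Id2* and 0.24 for *Id3*. Within dorsal wIAHCs, where 0.785% of genes were called, E11 minus E10 was -0.25, 1.27 and 0.25 in the same order (for *Id1* -1.18 with at least 10000 transcripts, and 43.9 CPM higher at E11 by the means), and the interaction of stage and side, called for 0.154% of genes, was called for no member. A difference between stages or sides in the members was thus not detectable at this depth.

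The means were also compared in 12 permutation tests, chosen after seeing the data, which gave 1 unadjusted p under 0.05. *Id2* in dorsal wIAHCs was higher at E11 than at E10 by 105 CPM (exact 2-sided p = 0.0259, not adjusted), with a transcript in 9 of 12 E11 and 3 of 7 E10 libraries. This rests on 13 transcripts at E11, at most 2 in a library, and 6 at E10. At the median depth of E11 dorsal libraries 1 transcript stands for 121 CPM. Leaving out each of the 19 libraries in turn gave differences of 81.4 to 118.2 CPM and exact p-values of 0.0133 to 0.0475. These runs were made for this test alone, picked for its p under 0.05, so they do not account for that choice. In edgeR without the filter the same contrast had an adjusted p of 0.513. The difference for *Id3* in ventral wIAHCs was 130 CPM (permutation p = 0.108, 2-sided). By their column names E11 wIAHCs fall into 2 sets, called collection sets here, and the labels do not say how these differ. All 46 *Id3* transcripts of E11 ventral wIAHCs were in the second (10 of 13 libraries), against 0 in the first (4 libraries). With the set as a term in the edgeR fit, the E11 ventral minus dorsal value of *Id3* went from 0.91 to 0.25 and that of *Id1* from 0.70 to 0.16. In E11 ventral wIAHCs *Id1* averaged 14.2 CPM in the first and 133.2 CPM in the second set. E10 wIAHCs have no such sets, so the stage and the set cannot be told apart.

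In the wIAHCs the medians of summed mesenchymal, erythroid and endothelial markers were higher at E11 than at E10 on both sides, with overlapping ranges. None of the mesenchymal or endothelial markers passed the filter on low counts in edgeR. Only 3 erythroid markers did, and all 3 were called higher at E11 on both sides. The 10 mesenchymal markers summed to medians of 17.4 (E10 dorsal), 33.7 (E10 ventral), 368 (E11 dorsal) and 234 (E11 ventral) CPM, and the 7 erythroid markers to 301, 152, 1899 and 3029. The 8 endothelial markers, of the tissue in which the *Id* genes were highest in single cells, summed to medians of 547, 706, 1276 and 904 CPM in the same order, with the highest in E11 dorsal. The 8 macrophage markers summed to medians of 60.6, 127, 0 and 70.7 CPM in the same order, with maxima of 452, 502, 433 and 395. Of these markers, *Ctss*, *C1qa* and *C1qb* were at 0 in every group. The part of these tissues in the *Id* values was not tested. In the 12 E11 dorsal libraries *Id2* was correlated with the summed endothelial markers with Pearson's r of -0.83 (permutation p = 0.00085, adjusted p = 0.0510 over 60 relations) and Spearman's rho of -0.83 (adjusted p = 0.0438). Without the 2 libraries farthest from the median r was -0.64, and within the 2 collection sets r was -0.66 and -0.94 over 6 libraries each. In the 17 E11 ventral libraries the sign was the opposite, with an r of 0.43 (permutation p = 0.0839, adjusted p = 0.375) and a rho of 0.43 (adjusted p = 0.339), and within the second set (13 libraries) r was 0.48. *Id2* and the mesenchymal markers gave a rho of 0.80 (adjusted p = 0.0459) but an r of 0.54 (adjusted p = 0.375) in the 12 E11 dorsal libraries. Both measures are scaled by the same library total. *Id2* in the E11 dorsal libraries rests on 13 transcripts, at most 2 in a library.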

How the data were processed

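Single cells and wIAHCs had been sequenced by CEL-Seq, which counts the 3′ end of each molecule by a unique molecular identifier. The tools and build given in the submitters' processing notes are BWA 0.6.2-r126 and mm10. The deposited single-cell tables hold estimated counts that the authors down-sampled to 3000 (E10) or 5000 (E11) transcripts per cell (as the sums of the cells show, since the study's methods name the E11 depth alone), with 0.1 added to each value, which was subtracted here. The wIAHC table holds estimated counts of transcripts that the authors corrected for identifier collisions and that are not scaled for depth. These were rounded for testing, and spike-in entries were left out. Counts are of molecules, so levels were not divided by gene length.

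Members and gene lists were chosen with earlier results of these data known. Single-cell populations have 1 sample each, so transcripts were summed and compared by ratio, with exact 95% intervals, 0.1 added only for ranking among genes with at least 0.5 transcripts per cell and calls made past 2-fold. Partner and pathway genes were named if they reached 0.5 transcripts per cell in either population. wIAHC libraries with at least 5000 transcripts were fitted by stage and side in edgeR 4.0.16 (quasi-likelihood test, TMM, R 4.3.3, Benjamini-Hochberg adjustment, threshold 0.05), with DESeq2 1.42.0 as an alternative. Nothing in the labels says that the libraries of a group came from separate embryos, so p-values measure only the spread between them. The edgeR fits with the filter (between stages) and without it (each contrast) were tested on simulated data, and in the fit without it 2-fold changes at the members' level were rarely called. Other computations used Python 3.11.15 with pandas 2.3.3 and scipy 1.17.1, with 100000 permutations where enumeration was not feasible. Other pseudocounts, thinning, leaving out sorted sets, a cut on *Gpr56* in IAHC cells, other library minimums, the collection set as a covariate and no filter were tried. No cell or library duplicated another.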

Additional observations from a re-analysis of the deposited data

Results flagged for a closer look

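In the E11 c-kit+ IAHC sample, 1 of the 5 sorted sets stood apart from the others in *Id1*, with 1 transcript per cell against 0.385 to 0.440. The set held 15 cells and the others 7 to 26. The criterion (Dixon's, at the 95% level) is passed by chance in about 1 of 20 groups of equally precise values, which these sets are not.

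The 52 wIAHC libraries under 5000 transcripts, used in no comparison, held 8 transcripts of *Id1* in 8 libraries, 16 of *Id2* in 8 libraries and 22 of *Id3* in 14 libraries, among 100355 transcripts in all. These counts are above the 3 that a count of 0 allows.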

How the results depend on the processing

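Of 313 alternative values, 281 kept direction and call or stayed within their error, 19 moved, 7 fell below 2-fold (4 of them among genes high enough to rank) and 6 changed sign. With 0.5 in place of 0.1 added, the log2 ratio of EHT over HE at E10 was -0.75 for *Id1* and -0.52 for *Id2*, that of YS over IAHC was -0.57 (*Id1*) and -0.85 (*Id3*) at E10 and -0.64 (*Id1*) and -0.42 (*Id2*) at E11, and that of *Id3* in type II over type I pre-HSCs was -0.68, since a larger value added draws low genes toward 0. Thinning to 3000 transcripts gave *Id2* 0.167 per 1000 in E11 HE (from 0.239) and 0.00606 in type II pre-HSCs (from 0.0218). A cut on *Gpr56* gave 0.0298 for *Id1* and 0.0596 for *Id3* in c-kit+ and 0.120 for *Id3* in c-kit+ CD31+ IAHC cells. Leaving out 1 sorted set at a time gave *Id1* from 0.301 to 0.523 per 1000 in E10 HE, from 0.112 to 0.189 in E10 EHT, from 0.0400 to 0.0971 in type II pre-HSCs and from 0.107 to 0.144 in c-kit+ CD31+ IAHC cells, and *Id3* from 0 to 0.0103 in E10 YS cells. Leaving out cells with macrophage markers gave *Id2* -0.24 for E11 over E10 in EHT (from 0.030).

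In wIAHCs, dropping the filter gave 485 genes called between stages, 310 in ventral and 107 in dorsal libraries, 8 between sides at E10, 12 at E11 and 21 for the interaction, over 13627 genes in place of 260. A minimum of 10000 transcripts gave 132 (ventral) and 3 (dorsal). Between sides and for the interaction, edgeR with the filter called 0, with 20, 23 and 26 genes at an unadjusted p under 0.05. The sign changed for *Id1* between stages (0.03) with DESeq2 (-0.12) and with a minimum of 10000 (-0.49), for *Id3* between stages in dorsal libraries (0.25) with DESeq2 (-0.015), and with a minimum of 3000 for *Id3* between sides at E10 (-0.15) and *Id2* between sides at E11 (-0.34). These member settings were chosen after seeing the data, and the cause was not tested. No paired analysis was possible because each single-cell population is 1 sample (values within the sets that both pre-HSC types share are given with the pre-HSCs) and because the wIAHC collection sets, used as a covariate between sides at E11, are not shared between stages.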

Other observations

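*Id4* was listed in the wIAHC libraries under 5000 transcripts with 1 transcript. In single cells its 11 E11 transcripts were 3 in non-HE, 1 in HE, 2 in EHT, 1 in c-kit+ CD31+ and 4 in c-kit+ IAHC cells. It is overlapped on the other strand by the annotated genes *A330033J07Rik* and *Gm49291*.

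Pooled over libraries, wIAHCs at E11 held 0.0968 (ventral) and 0.0715 (dorsal) *Id1* transcripts per 1000, 0.0876 and 0.103 of *Id2*, and 0.137 and 0.0952 of *Id3*. The wIAHC and single-cell tables were made separately, and these levels were set against the single-cell ones by no test. In 21 E10 ventral libraries *Id3* and the erythroid markers gave Spearman's rho of 0.66 (permutation, adjusted p = 0.0438) and Pearson's r of 0.35 (adjusted p = 0.375), and *Id2* and the mesenchymal markers a rho of 0.63 (adjusted p = 0.0459) and an r of 0.50 (adjusted p = 0.263), which went to 0.28 without the 2 libraries farthest from the median.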
